A study of Mus musculus with 2 samples.

Results

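Dbp, Tef, Hlf, Nfil3, Ciart, Bhlhe40, Bhlhe41 and Rora encode transcription factors through which the circadian clock reaches its output genes. They were taken as a named list of 8 genes, and every gene probe whose accession belongs to one of them was used. All 8 were on the array, with 10 probes among probes that name 20017 genes in all, and 9 of the 10 probes lay well above background on both arrays. Glomerular regions dissected from mouse kidney were measured on 1 array for each group. The TG+STZ array carried RNA of mice labelled as Sirt1-overexpressing transgenic, and the WT+STZ array RNA of wild-type mice. All mice were male, had a C57BL/6J strain background and were given streptozotocin (STZ), which destroys pancreatic beta cells, at 8 weeks of age, dissolved in citrate buffer of 100 mmol/l. They were killed at 32 weeks. The title of the series places the Sirt1 of interest in the renal tubule. The promoter of the transgene, the number of mice behind each array and the time of day of the kill are not stated in the labels used here. Both groups had received STZ, so no animal without it enters the comparison. With 1 array in each group, no difference could be checked against replicates or tested.

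The circadian clock is a feedback loop of transcription. CLOCK and BMAL1 bind E-boxes and switch on the Per and Cry genes, whose proteins then inhibit them, and the nuclear receptors REV-ERB and ROR act against each other on the gene of BMAL1. The PAR bZIP activators DBP, TEF and HLF carry the rhythm outward by binding D-boxes, and NFIL3 binds the same D-boxes as a repressor. CIART inhibits CLOCK and BMAL1, the DEC proteins BHLHE40 and BHLHE41 repress at E-boxes, and ROR alpha, from Rora, activates at receptor elements. In kidney the clock is known for daily rhythms of filtration and salt excretion, and in mice the PAR bZIP proteins drive genes that handle foreign compounds.

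E-boxes, D-boxes and receptor motifs are letters through which the clock is known to act. The promoters of the members with the highest differences are therefore shown. They are the 250 bases before the transcription start, 5′ to 3′ on the strand of the gene, from the RefSeq table of build GRCm38.p6. That table held 8 promoters of 7 of the 8 genes, and Bhlhe40 was not matched. Capitals mark matches to CACGTG (E-box) or to AGGTCA or its longer form TAGGTCA (receptor motif, on either strand), and no match to the D-box TTATGTAA or TTACGTAA occurred in the 8 promoters. Ciart lies at chr3:95882229-95882478, minus strand, Dbp at chr7:45704997-45705246, plus strand, and Nfil3 at chr13:52981040-52981289, minus strand. Tef has 2 starts, with promoters at chr15:81802423-81802672 and chr15:81811164-81811413, plus strand.
Ciart: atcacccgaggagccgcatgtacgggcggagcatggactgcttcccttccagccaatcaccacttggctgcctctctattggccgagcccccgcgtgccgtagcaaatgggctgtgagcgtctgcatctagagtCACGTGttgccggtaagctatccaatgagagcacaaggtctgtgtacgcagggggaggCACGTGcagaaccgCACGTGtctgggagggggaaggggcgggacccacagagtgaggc
Dbp: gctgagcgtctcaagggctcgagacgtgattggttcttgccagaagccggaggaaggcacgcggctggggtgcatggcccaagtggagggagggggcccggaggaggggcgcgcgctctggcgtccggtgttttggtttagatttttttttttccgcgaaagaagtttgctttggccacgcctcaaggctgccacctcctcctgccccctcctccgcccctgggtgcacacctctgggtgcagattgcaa
Nfil3: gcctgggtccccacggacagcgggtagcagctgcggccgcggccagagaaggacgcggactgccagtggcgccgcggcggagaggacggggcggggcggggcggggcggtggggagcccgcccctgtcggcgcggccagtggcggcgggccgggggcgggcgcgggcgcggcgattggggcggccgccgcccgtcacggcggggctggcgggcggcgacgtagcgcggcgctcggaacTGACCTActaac
Tef start 1: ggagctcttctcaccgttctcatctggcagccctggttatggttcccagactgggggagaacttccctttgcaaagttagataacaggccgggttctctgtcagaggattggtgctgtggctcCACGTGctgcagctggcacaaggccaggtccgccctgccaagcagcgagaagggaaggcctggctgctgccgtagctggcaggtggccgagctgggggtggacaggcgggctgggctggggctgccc
Tef start 2: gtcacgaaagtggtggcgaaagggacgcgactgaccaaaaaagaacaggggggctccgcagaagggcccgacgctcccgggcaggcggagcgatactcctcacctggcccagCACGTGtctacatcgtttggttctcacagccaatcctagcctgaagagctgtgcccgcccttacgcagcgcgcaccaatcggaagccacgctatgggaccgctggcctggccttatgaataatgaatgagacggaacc

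Ciart held 3 E-boxes, beginning at -116, -58 and -44 from the start, and 3 or more occurred in 20 of 32851 promoters (0.0609%). Each Tef promoter held 1, at -127 and -138, and the promoter of Bhlhe41 held 1 at -153, where 6.02% of all promoters of the same length held any. The E-box letters contain a CG pair, and the members' promoters held a median of 23 CG pairs, against 6 over all promoters. The shares over all promoters were not matched for this. The receptor motif of Nfil3 began at -12 on the opposite strand as the longer form, which contains the shorter one, and 2.23% of promoters held the longer form and 14.02% the shorter. In Dbp, Hlf and Rora none of these letters occurred in the window. A match is a description of the letters and shows no binding. The motif map shows the same positions.

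**Figure D1:**
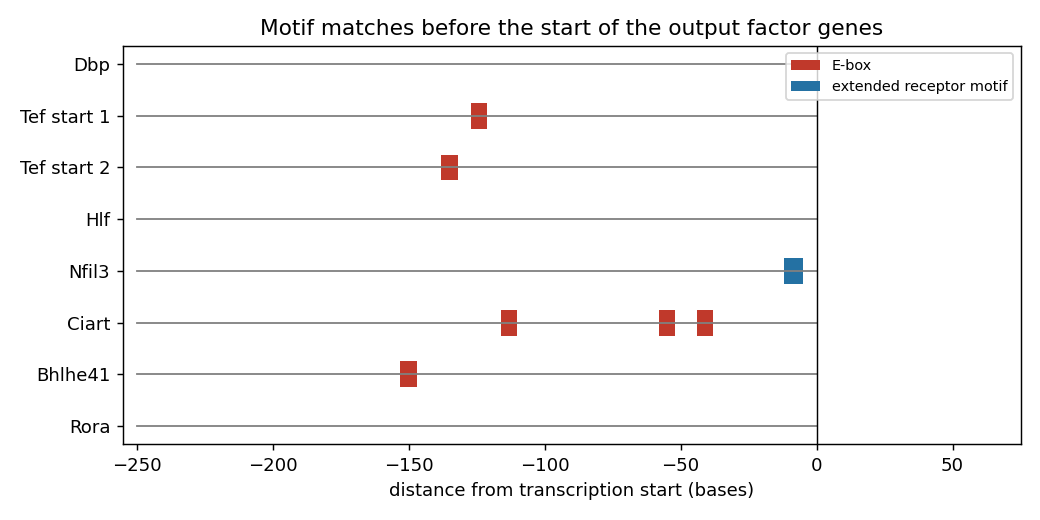
Positions of motif matches in the 250 bases before the start of the output factor genes, as distance from the transcription start in bases, with E-boxes in red and the extended receptor motif in blue. Ciart has 3 E-boxes, Bhlhe41 and each start of Tef have 1, Nfil3 has the receptor motif, and Dbp, Hlf and Rora have no match.

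Signals are given in intensity units as processed by the scanner software. A difference is TG+STZ minus WT+STZ in log2 signal, each array first scaled to the 75th percentile of its gene spots, which was 2042 units for TG+STZ and 1933 for WT+STZ. The error beside it is the scanner software's own error of both spots. It covers a single hybridisation and not the spread between mice. For every bright member probe this error was nearly the same, at 0.20, and it was larger than the spread of repeat spots. Over the 164 probes spotted repeatedly on each array at 1000 to 60000 units, the SD of the difference between repeat spots had a median of 0.026. The highest was 0.058. On the TG+STZ array 76.26% and on the WT+STZ array 75.04% of 43020 gene spots lay well above background, and 15971 genes were measured on both. Over those genes the median difference was 0.00, the SD was 0.26, and 95% lay between -0.52 and 0.49. Sirt1 itself, from 1 probe, differed by 0.10 ± 0.20. No label says whether that probe also reads the transgene. Podocyte markers (8 of 8) and proximal tubule markers (8 of 8) were both well above background on both arrays, so the RNA held tubule transcripts beside those of the glomerulus.

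The 8 output factors did not share a direction. Dbp, Ciart, Nfil3 and Tef were higher on the TG+STZ array, and Hlf, Bhlhe40, Bhlhe41 and Rora were lower. Only Dbp was at least 2-fold apart, where 0.52% of all measured genes passed 2-fold upward and 0.47% downward. At 1.5-fold, Dbp and Ciart were higher and no member was lower, beside 1.75% and 1.91% of all genes. The median of the 8 differences was 0.14, against 0.00 for all genes. The scatter of all measured genes shows where each member lies.

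**Figure D2:**
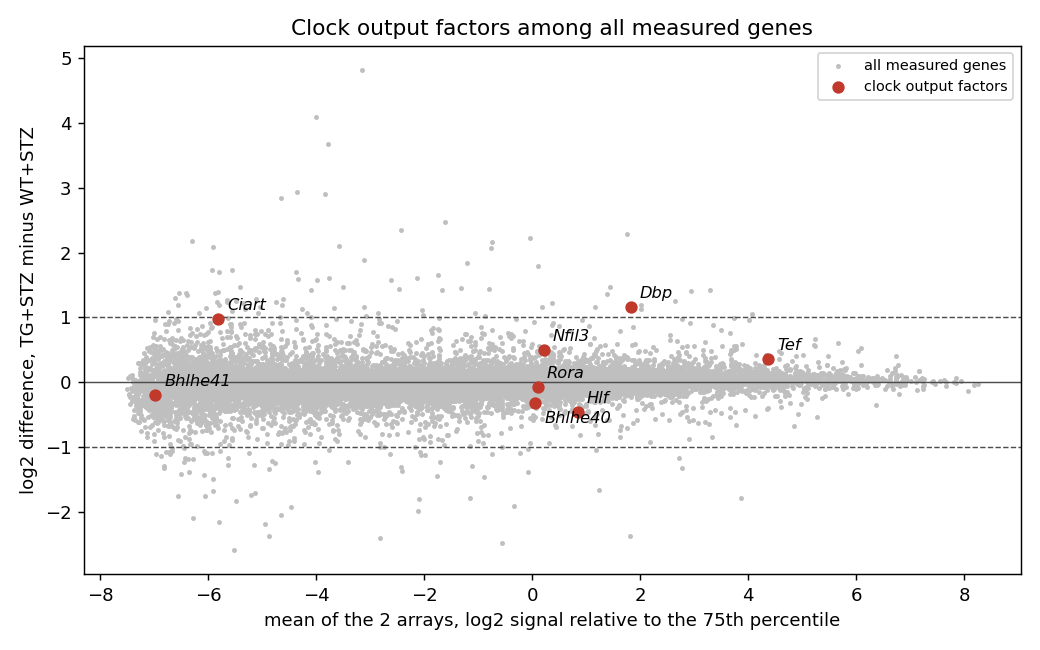
Log2 difference (TG+STZ minus WT+STZ) of each of 15971 measured genes against its mean log2 signal relative to the 75th percentile, with the 8 output factors in red and dashed lines at 2-fold. Dbp lies above the upper line among bright genes, Ciart just under it among dim genes, and the other 6 lie between the lines.

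Dbp, a D-box activator with a strong daily rhythm in many mouse organs, had the highest difference of the members. Its first probe read 10384 units on the TG+STZ array and 4444 on the WT+STZ array. Its second probe read 11255 units on TG+STZ and 4723 on WT+STZ. Both probes were brighter on TG+STZ, with differences of 1.15 ± 0.20 and 1.17 ± 0.20, so the probes of this gene disagreed by much less than the error. Together, with the probe errors taken as independent, they gave 1.16 ± 0.14, or 2.23-fold higher on TG+STZ. In the order of all 15971 genes Dbp stood 64th from the top. Among the 7986 genes brighter than the median gene, which include Dbp, 0.263% were at least 2-fold higher.

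Tef, a D-box activator first known from the pituitary, read 47899.9 units on the TG+STZ array and 35526 on the WT+STZ array. It was brighter on TG+STZ by 0.35 ± 0.20, or 1.28-fold, and 4.63% of all genes had a higher difference. Hlf, the third D-box activator, read 3145 units on TG+STZ and 4079 on WT+STZ. Hlf was dimmer on TG+STZ, with a difference of -0.45 ± 0.20, and 3.31% of all genes had a lower one. The PAR bZIP genes were thus spread over both sides of 0. Dbp exceeded Hlf by 1.61 ± 0.25, Dbp exceeded Tef by 0.81 ± 0.25 and Tef exceeded Hlf by 0.81 ± 0.29 on the log2 scale. These are differences between differences, so a common scaling factor of an array cancels in them.

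Nfil3, the repressor at D-boxes, read 2813 units on the TG+STZ array and 1893 on the WT+STZ array. It was brighter on TG+STZ by 0.49 ± 0.20, or 1.41-fold, and 2.53% of all genes had a higher difference. Set against the activators of the same sites, the difference of Dbp exceeded that of Nfil3 by 0.67 ± 0.25. That of Nfil3 exceeded that of Hlf by 0.95 ± 0.29, while Nfil3 and Tef lay 0.14 ± 0.29 apart, within the error. The repressor therefore lay on the same side of 0 as Dbp and Tef, between Dbp and Hlf.

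Ciart, the inhibitor of CLOCK and BMAL1 whose promoter with 3 E-boxes is printed above, had a dim probe. It read 51.1 units on the TG+STZ array and 24.5 on the WT+STZ array. The probe was well above background on both, at 5.27 times the lowest such signal on TG+STZ and 2.31 times that on WT+STZ. Its difference of 0.98 ± 0.27 lay just below 2-fold and was the second highest of the members, 88th from the top of all genes. Among the 7985 genes dimmer than the median gene, 0.776% were at least 2-fold higher. Before processing, the median spot brightness stood 42 units above the local background on TG+STZ and 19.5 on WT+STZ. With normexp background correction the difference of Ciart was 0.11, and with median, spike-in, loess or quantile scaling it reached 2-fold. Over the 42 probes spotted repeatedly on each array at 20 to 100 units, the SD of the difference between repeat spots had a median of 0.12 and was at most 0.26.

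Bhlhe40, which encodes DEC1, a repressor at E-boxes, read 1896 units on the TG+STZ array and 2246 on the WT+STZ array. It was dimmer on TG+STZ, at -0.32 ± 0.20, and 6.62% of all genes had a lower difference. Bhlhe41, which encodes the related repressor DEC2, had 2 probes. The brighter one read 15.1 units on TG+STZ and 16.4 on WT+STZ, close to the lowest signal counted as above background, which was 9.70 units on TG+STZ and 10.6 on WT+STZ. Its difference was -0.20 ± 0.38, within the error. The dimmer probe read 4.60 units on TG+STZ and 2.28 on WT+STZ and was not well above background on either array. Its difference of 0.94 ± 1.58 was therefore left out of the gene's value. With that probe averaged in, Bhlhe41 stood at 0.37, the only member to change sign under the alternatives tried.

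Rora, the activator at receptor elements, read 2138 units on the TG+STZ array and 2142 on the WT+STZ array. The signals were nearly equal, and the scaled difference of -0.08 ± 0.20 lay within the error. Its relative Rorb, a ROR gene of the core clock list below, was lower on TG+STZ at -0.28 ± 0.23.

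**Figure D3:**
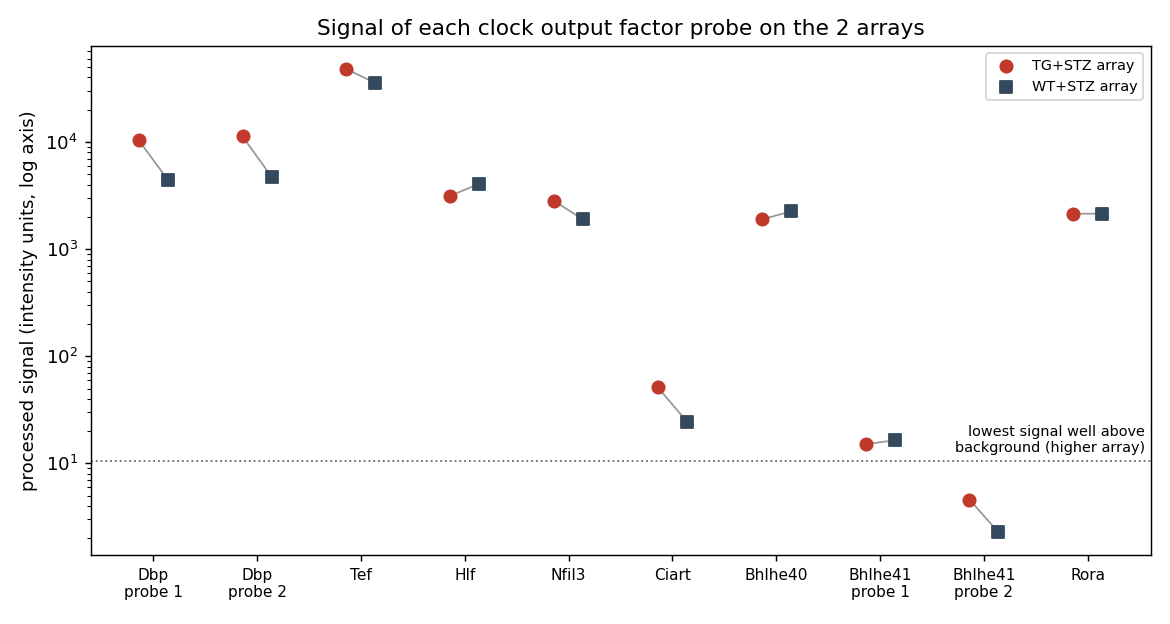
Processed signal in intensity units (log axis) of each of the 10 probes on the TG+STZ array (red circles) and the WT+STZ array (blue squares), with the lowest signal well above background as a dotted line. Both Dbp probes and the Ciart probe show the steepest drops toward WT+STZ among the detected probes, and the second Bhlhe41 probe lies below the line on both arrays.

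By difference the members ran in the order Dbp, Ciart, Nfil3, Tef, Rora, Bhlhe41, Bhlhe40 and Hlf. No neighbours in that order were further apart than 2 scanner errors of their own difference. Of all 28 member pairs, 14 were. Each member enters several pairs, so the pairs are not independent, and many of the 14 hold Dbp or Ciart. The share of pairs this far apart among all measured genes was not computed, so the count has no baseline. The pair Dbp and Ciart, at the top, lay 0.18 ± 0.30 apart, and the pair Bhlhe40 and Hlf, at the bottom, 0.13 ± 0.29. The motif matches are set beside this order, and a link between them was not tested. They cover only the 250 bases before the start, and Bhlhe40 had no promoter. The genes with an E-box in the window stood at 0.98 (Ciart), 0.35 (Tef) and -0.20 (Bhlhe41). Nfil3, with the receptor motif, stood at 0.49, and the genes with no match in the window at 1.16 (Dbp), -0.08 (Rora) and -0.45 (Hlf).

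The other genes of the clock were counted from a list of 19, of which all were measured. None was at least 2-fold apart, 8 were higher and 11 lower (7 to 9 higher under other settings), and their median was -0.09, against 50.9% higher and a median of 0.00 over all genes. Of the 4 activators of the loop, 3 were lower. Arntl, which encodes BMAL1, read 1199 units on TG+STZ and 1844 on WT+STZ, a difference of -0.70 ± 0.20. Arntl2, dim at 18.0 units on TG+STZ and 22.8 on WT+STZ, was at -0.36 ± 0.23 (probes at -0.56 and -0.17) and Npas2, a stand-in for CLOCK, at -0.31 ± 0.21. Of the 5 Per and Cry genes 3 were higher, among them Per2 at 0.29 ± 0.21, which was 0.09 under normexp. Cry1 stood opposite at -0.85 ± 0.28, from a dim probe that read 17.6 units on TG+STZ and 30.1 on WT+STZ. Of the 4 receptors, the REV-ERB genes were higher, Nr1d2 at 0.46 ± 0.20 and Nr1d1 at 0.38 ± 0.20, and the ROR genes were lower. Dbp, Nfil3 and the dim Ciart lay above all 19, though Ciart was at 0.11 under normexp. Nr1d2 and Nr1d1 came close to Nfil3 and Tef. The plot of differences by role sets the members beside these genes.

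**Figure D4:**
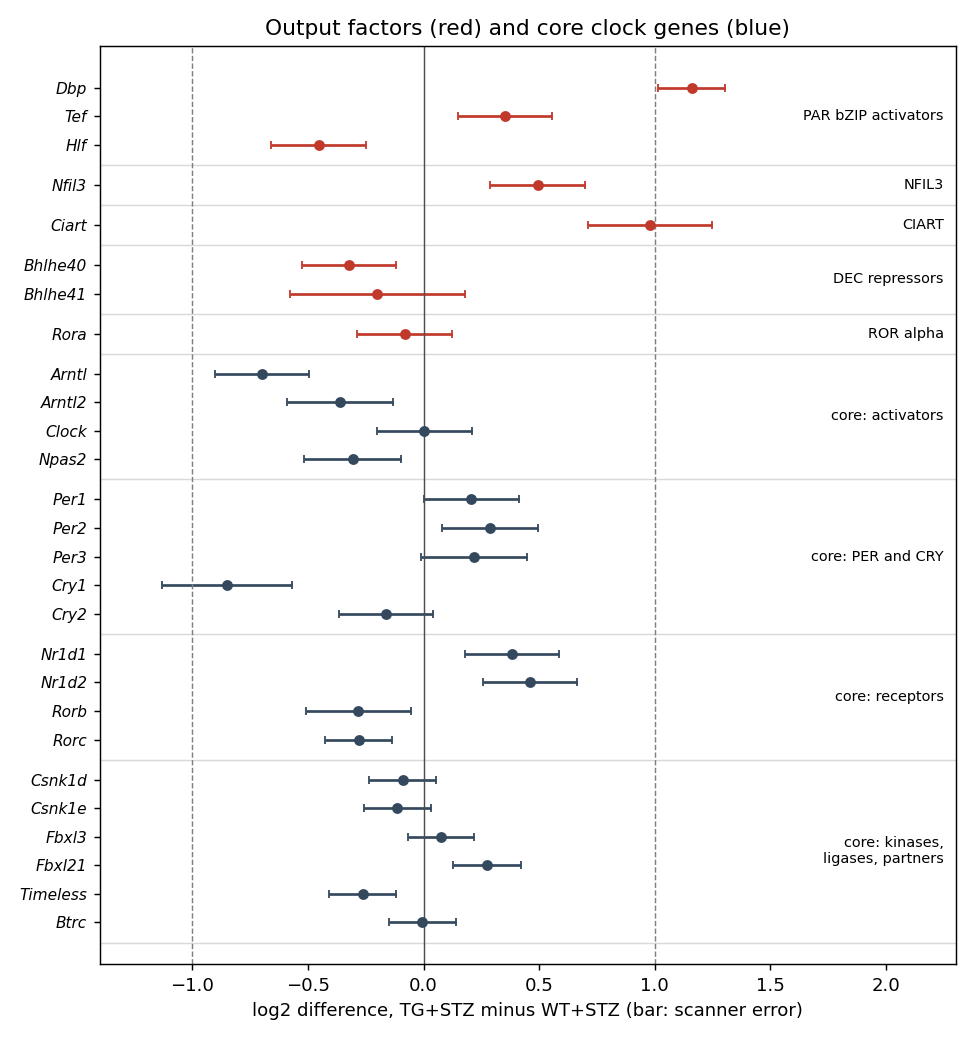
Log2 difference (TG+STZ minus WT+STZ) of the 8 output factors (red) and 19 core clock genes (blue), grouped by role, with the scanner error as bars and dashed lines at 2-fold. Dbp and Ciart lie furthest right, and Cry1 and Arntl furthest left.

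Genes that mouse work has tied to DBP, TEF and HLF lay on both sides of 0. Of 10 listed, 8 were measured, 5 were higher, 3 lower and none at least 2-fold apart, with a median of 0.07, beside 50.9% higher and a median of 0.00 over all genes. Cyp2b10, a cytochrome that handles foreign compounds, read 767 units on TG+STZ and 405 on WT+STZ, a difference of 0.84 ± 0.20. Alas1, the first enzyme of haem synthesis, stood at 0.33 ± 0.14, from probes at 0.15 and 0.52. Por, the electron donor of the cytochromes, was at 0.24 ± 0.20. Pdxk, the kinase that activates vitamin B6, stood opposite, with 3 probes between -0.37 and -0.33 and a mean of -0.35 ± 0.12. Cyp7a1 was not well above background on either array, and no probe accession was matched to Cyp2a5.

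A further list of 11 genes has daily rhythms in many mouse organs or is tied to the clock in kidney. All were measured, 9 were higher and 2 lower, none was at least 2-fold apart, and the median was 0.12, where 50.9% of all genes were higher (36.9% to 57.8% by setting). Tspan4, counted among the 9, stood at 0.00. The count was 8 under the percentile of detected probes, loess and quantile, and 7 under normexp. Fkbp5, a chaperone partner of steroid receptors, read 9431 units on TG+STZ and 5921 on WT+STZ, a difference of 0.59 ± 0.20. Usp2, a ubiquitin protease, was at 0.33 ± 0.20 and Wee1, a kinase that holds back mitosis, at 0.25 ± 0.20. Lonrf3 was lower at -0.47 ± 0.14, with probes at -0.55 and -0.38.

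Markers of other cell types were also counted between the same arrays. Their summed signals are not scaled between arrays, unlike the differences. The 75th percentile used for scaling was 2042 units on TG+STZ and 1933 on WT+STZ. Of all 15971 measured genes, 8132 were higher and 7839 lower, and 0.52% were at least 2-fold higher. Of 8 fat cell markers 4 were measured on both arrays, and all 4 were higher on TG+STZ, with a median of 2.06, a summed signal of 16949 units on TG+STZ and 11617 on WT+STZ, and Cfd and Retn furthest at 4.82 and 2.84. The fat cell median was 0.96 under normexp, 2.84 under a laxer detection flag and 2.45 with no dim filter, and the markers at least 2-fold higher numbered 6 under the laxer flag and with no dim filter, against 3. Adipoq, Plin1 and Ucp1 were well above background on TG+STZ alone, and Lep on neither array. All 7 measured leukocyte markers of 8 listed were lower, with a median of -0.64, a sum of 1946 units on TG+STZ and 2308 on WT+STZ, and Ms4a1 and S100a9 furthest at -0.79 and -0.76. Their median was -0.39 under normexp. Collecting duct markers were lower in 7 of 8, with a median of -0.25, a sum of 64854 units on TG+STZ and 76174 on WT+STZ, and Slc26a4 and Aqp2 at -0.63 and -0.43. Podocyte markers were lower in 5 of 8, with a median of -0.08, a sum of 18373 units on TG+STZ and 22170 on WT+STZ, and Nphs1 furthest at -0.89. Proximal tubule markers had a median of -0.02 and a sum of 1553076 units on TG+STZ and 1451571 on WT+STZ, with Slc22a6 and Slc5a12 furthest at 0.26 and 0.25. No marker was listed at 0. The part of these markers in the values of the output factors was not tested, and in bulk RNA fewer cells of a type and less RNA per cell cannot be told apart.

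The differences of Dbp, Tef, Hlf, Nfil3, Bhlhe40 and Rora changed little under the alternatives, several of which could not move them. The deposited value table held the same intensities. For a bright member with 1 probe, no dim filter, the laxer detection flag and the brightest probe also return the same value. Scaling by the median, the percentile of detected probes or the spike-ins shifts every gene by the same amount. Dbp ranged from 1.13 to 1.18, Tef from 0.28 to 0.38, Nfil3 from 0.47 to 0.52 and Hlf from -0.48 to -0.43 over 10 alternatives. Bhlhe40 ranged from -0.34 to -0.30 and Rora from -0.10 to -0.06. The dim members were less steady, with Ciart between 0.11 and 1.03 and Bhlhe41 between -0.39 and 0.37.

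**Figure D5:**
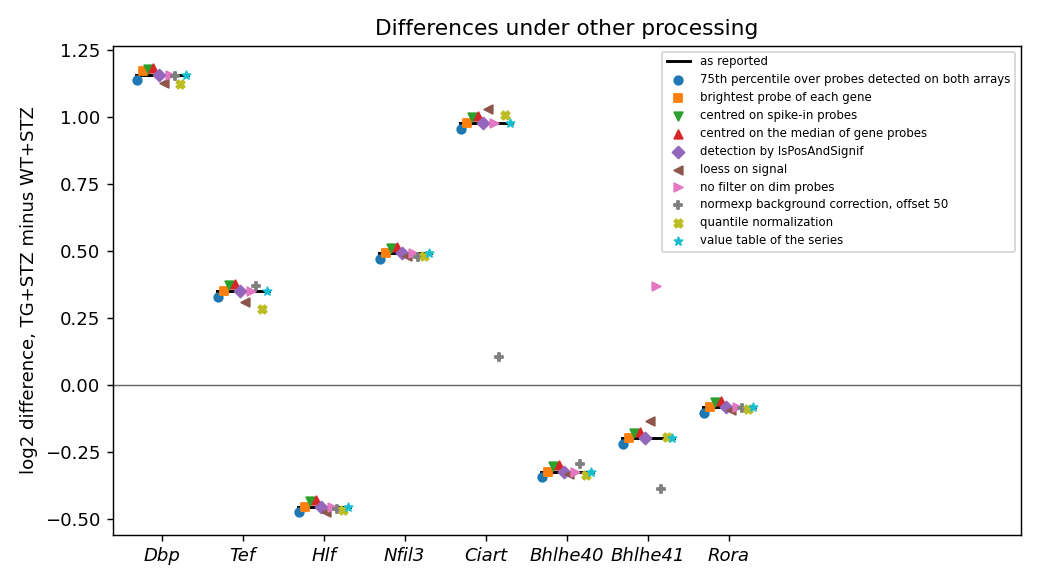
Log2 difference (TG+STZ minus WT+STZ) of each output factor as reported (black line) and under 10 alternatives (symbols). Ciart drops to 0.11 under normexp and Bhlhe41 crosses 0 with no filter on dim probes, while the other 6 members stay close to their lines.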

How the data were processed

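RNA of dissected glomerular regions, labelled with Cy3, was read on 1 Agilent 1-colour mouse array per group. Per the file headers, the authors' deposited intensity values are background-subtracted and detrended array by array, as written by Agilent Feature Extraction 10.7.1.1 (10.3.1.1 per the submitters' processing notes). The deposited value table held the same intensity at each of 44397 spots (equal with no tolerance) and was not normalized between arrays.

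The main values were log2 intensity minus log2 of the array's 75th percentile over gene spots. Control and outlier spots were then left out, spots of 1 probe averaged, and a gene's probes averaged where well above background and unsaturated on both arrays. Probes were named by unversioned accession through a RefSeq gene table of GRCm38.p6, which matched 26412 of 39429. The probes have no coordinates in the tables used here.

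The members, lists and alternatives were chosen with earlier results of these data known. Named are all members, the 8 furthest core clock genes, the 4 furthest of the other clock lists and the 2 furthest of each marker list, of which 1 gene is not reported here. Differences past 2-fold were counted, and no test was possible with 1 array per group. The number of arrays limits the precision. The 10 alternatives were normexp (offset 50, on spot medians), median, detected-probe percentile, quantile, loess (span 0.3) and spike-in scaling, the value table, no dim filter, a laxer detection flag and the brightest probe, beside a 1.5-fold threshold. The steps were tested on simulated data. The tools were limma 3.58.1 in R 4.3.3, and pandas 2.3.3, numpy 2.4.6, matplotlib 3.10.9 and statsmodels 0.14.6 in Python 3.11.15.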

Additional observations from a re-analysis of the deposited data

How the results depend on the processing

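A value counted as unmoved where it shifted by less than its scanner error (for a list median, the median gene's error of 0.20), and a count where it stayed within 1.5 times. The count of members at least 2-fold higher was 1 as reported and 2, with Ciart added, under median, spike-in, loess and quantile scaling and at a 1.5-fold threshold. The median of the members was 0.36 with no filter on dim probes and 0.01 under normexp, against 0.14. All genes at least 2-fold higher and lower numbered 83 and 75 as reported, 36 and 29 under normexp, 202 and 217 under the laxer detection flag, 295 and 323 with no dim filter, and 280 and 305 at 1.5-fold. At 1.5-fold, 2 core clock genes (Cry1 and Arntl) were lower, and 1 gene each of the PAR bZIP targets (Cyp2b10) and of the rhythmic outputs (Fkbp5) was higher. Normexp moved the median of all genes to -0.05, against 0.00, and the share of genes higher to 36.9%, against 50.9%. In that setting 3 of the measured PAR bZIP targets were higher, against 5, and their median was -0.03. The sign of Bhlhe41 turned with no dim filter. Normexp brought Ciart to 0.11, Per2 to 0.09, Cry1 to -0.54, Retn to 1.39 and Cfd to 3.41, and its offset pulls differences of low signals toward 0 by construction, but Bhlhe41 stood further from 0 under it, at -0.39. None of the named genes at least 2-fold apart as reported changed sign. No paired analysis was possible because each group has 1 array and the labels give no replicate numbers. Signals within a few times the lowest detected one, such as those of Ciart, Bhlhe41, Cry1, Arntl2 and Retn on WT+STZ, limit what can be said of these genes.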

Other observations

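The 8 promoters of the output factors were rich in G and C, with a median of 63.0% and a range of 60.4% to 81.6%, against a median of 52.4% over all 32851 promoters of the same length. They held a median of 23 CG pairs, against 6. The 22 promoters of core clock genes had a median of 65.0% G and C and 19.5 CG pairs. The D-box, absent from the members' windows in both forms, occurred in 306 of all promoters (0.931%) and in 2 of the 14 core clock genes with a promoter in the table. Per3 held 2 D-boxes, beginning at -205 and -158 from the start, where 7 of all promoters held 2 or more, and Timeless held 1 at -157. Per3 stood at 0.22 ± 0.23 and Timeless at -0.26 ± 0.15. These genes were chosen after their promoters were seen.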
